A study of Arabidopsis thaliana with 24 samples.

Results

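The GASA genes encode small secreted peptides with a cysteine-rich C-terminal domain, and many of them are induced by the hormone gibberellin. The mRNAs of GASA1 to GASA6 and GASA14 were followed here across 8 groups of arrays from Arabidopsis seedlings that received sucrose with or without light. These 7 genes were found among 30386 gene features by the locus at the start of each feature identifier, and each locus matched 1 feature. The family was chosen by the measured values of GASA6, whose level was far lower with sucrose than with the control in the dark. The values of all members in that comparison are therefore given as a description without a test, and the same holds for the comparisons built on it.

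Seedlings of the accession Col-0 were grown in shaken liquid culture under constant light and received either 150 mM sucrose or, as a control for osmotic effects, 150 mM sorbitol. During the 6 h of treatment the flasks stayed in the light or were wrapped in foil, which gave the 4 treatments light control, light sucrose, dark control and dark sucrose. The seedlings were 10 days old according to the methods of the study and 7 days old according to the sample labels. From each of 12 cultures, 3 per treatment and numbered 7, 8 and 9, 1 extract gave both the total RNA and the small polysome RNA, and these filled 24 arrays in all. Total RNA gives the steady-state mRNA level, and small polysome RNA gives the level of mRNA that carries a few ribosomes. Every plant was a whole wild-type seedling, so a lower array value can come from fewer cells of a type or from less RNA per cell, and these cannot be told apart.

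Gibberellins are made from a diterpene precursor, bind the GID1 receptors and lead to the breakdown of the DELLA proteins, which restrain growth. GASA peptides take part in cell elongation, germination, flowering and redox control, and individual members can act in opposite directions. GASA6 is known as a point where gibberellin, abscisic acid and sugar signals meet during germination. GASA4 is gibberellin-induced and active in meristems, GASA5 delays flowering, GASA14 carries a long proline-rich stretch before its GASA domain, and the GASA2 and GASA3 transcripts are best known from siliques and seeds.

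The 24 arrays were alike in distribution, with lower quartiles from 4.05 to 4.43 and medians from 5.92 to 6.06 on the log2 scale, and replicate arrays correlated over features with r from 0.980 to 0.993. Mean levels were 7.30 to 13.06 for leaf markers and 5.23 to 8.97 for root markers. They were 3.28 to 5.72 for 4 seed storage genes and 3.098 to 7.85 for 3 floral organ genes. The root range overlapped with the seed storage and floral ranges, so the presence of a tissue is not read from these levels. The 46 background control probe sets of the array spanned 1.19 to 10.2, so no single detection limit could be set. Levels are compared within a gene, since the value of a feature also depends on its probes. Precision is limited by the 3 arrays per group.

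GASA6 (AT1G74670) was the member with the widest range over the groups. Its feature lies on chromosome 1, plus strand, from 28053286 to 28054149 according to the array identifier, whose genome build is not stated. In total RNA the light control arrays read 8.68, 8.70 and 8.20 for cultures 7, 8 and 9 on the log2 scale, and the light sucrose arrays read 4.95, 4.68 and 5.36. The dark control arrays read 8.25, 8.22 and 7.00, and the dark sucrose arrays 3.26, 3.19 and 2.80. Every array without sucrose was thus above every array with sucrose, and every light sucrose array was above every dark sucrose array.

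The polysomal arrays gave the same order for GASA6. They read 8.32, 8.32 and 8.23 in the light control and 5.16, 4.51 and 5.09 with sucrose in the light. In the dark they read 8.24, 8.52 and 7.12 without sucrose and 3.001, 3.13 and 3.14 with it. Ordered by mean, the 8 groups ran from light control total RNA (8.53 ± 0.29, SD, n = 3) and light control polysomes (8.29 ± 0.05) through dark control polysomes (7.96 ± 0.74) and dark control total RNA (7.82 ± 0.71) to light sucrose total RNA (5.001 ± 0.34) and polysomes (4.92 ± 0.35), with dark sucrose polysomes (3.09 ± 0.08) and total RNA (3.08 ± 0.25) last. The 4 groups without sucrose overlapped with their neighbours in that order, as did total and polysomal RNA of light sucrose and of dark sucrose, whereas clear gaps separated these 3 levels. All 6 dark sucrose arrays lay below the lower quartile of their array, so how much of such a value is GASA6 mRNA and how much background hybridization is not known.

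**Figure D1:**
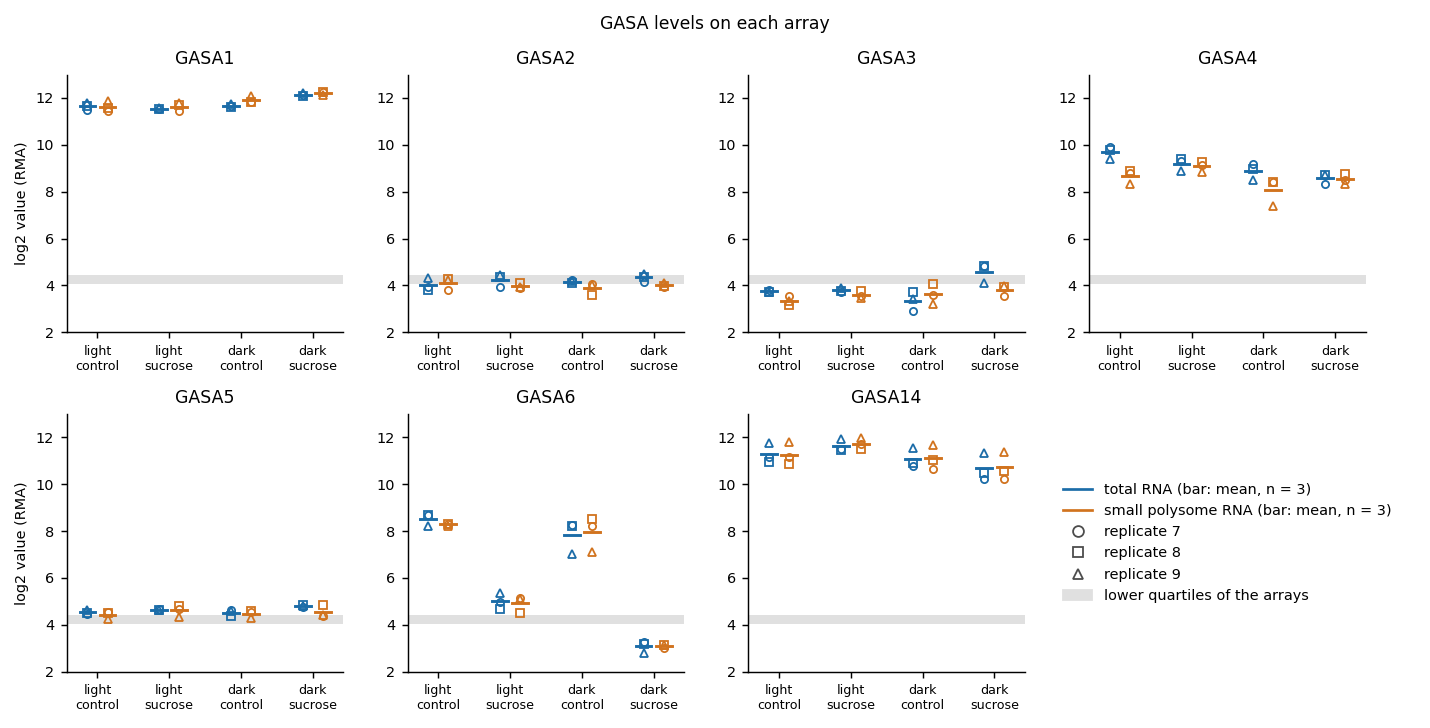
Levels of the 7 GASA genes on each of the 24 arrays. The y axis is the deposited log2 value, the x axis gives the 4 treatments, blue symbols are total RNA and orange symbols small polysome RNA, circles, squares and triangles are cultures 7, 8 and 9, bars are means of 3 arrays, and the grey band spans the lower quartiles of the arrays (4.05 to 4.43). GASA6 falls into 3 levels with means near 8, 5 and 3, while GASA1 and GASA14 stay above 10 and GASA2 stays within or near the grey band on all arrays.

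Sucrose in the light tests GASA6 on arrays that played no part in its choice. GASA6 fell by 3.53 on the log2 scale in total RNA (SE 0.32, limma adjusted p = 7.31e-08), which is an 11.5-fold lower array value, and by 3.37 in small polysomes (SE 0.32, limma adjusted p = 1.21e-07), which is 10.3-fold lower. Ordered from the largest fall, GASA6 was at rank 37 of 30386 features in total RNA and at rank 39 in polysomes. It was the only one of the 7 members past the thresholds of a limma adjusted p under 0.05 and more than 2-fold. Over all features 8.36% were called in total RNA (4.63% lower) and 9.14% in polysomes (4.34% lower), and 28.5% and 31.3% had an adjusted p under 0.05 at any fold. The other 6 members had changes between -0.50 and 0.34 in total RNA and between -0.13 and 0.46 in polysomes, with no adjusted p under 0.05. The median change of the 7 members was 0.05 in total RNA and 0.19 in polysomes, against 0.02 and 0.01 for all features.

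In the dark, where the family was chosen, the GASA6 value was 4.74 log2 units below the control in total RNA and 4.87 below it in small polysomes (SE 0.32 each), equal to 26.7-fold and 29.2-fold lower array values. It had the second-lowest change of all features in total RNA (rank 2) and ranked 3 in polysomes. Dark control culture 9 read more than 1 log2 unit below cultures 7 and 8 for this gene in both RNA fractions. Leaving out culture number 7, 8 or 9 in all treatments at once gave differences between 4.60 and 5.01 in total RNA.

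GASA6 was measured with and without sucrose on both sides of the light switch. Without sucrose, the dark minus light difference was -0.70 in total RNA and -0.33 in polysomes, and the groups overlapped. With sucrose it was -1.92 in total RNA and -1.83 in polysomes (SE 0.32 each), a 3.78-fold and a 3.55-fold lower array value, and the groups did not overlap. The sucrose effect in darkness was therefore lower than that under light by 1.22 log2 units in total RNA, and the difference in polysomes was -1.501 (SE 0.45 each). These differences share arrays with the comparison that led to the choice of the family and carry no test. Over all features the limma adjusted p of this difference was under 0.05 for 8.94% in total RNA and for 11.5% in polysomes, which is given as background only.

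Some leaf markers were also called lower with sucrose in total RNA. The 5 markers (RBCS1A, LHCB1.3, RCA, LHCA1 and PSAD1) summed to 14.51 to 14.81 on the log2 scale in light control total RNA and to 13.49 to 14.22 with sucrose. Of them 2 were called lower by limma, against 4.63% of all features, and 4 had an adjusted p under 0.05, against 28.5% in either direction. In dark total RNA the sum was 14.12 to 14.51 without and 13.55 to 13.87 with sucrose. There 1 of 5 was called lower, and 11.1% of all features were called in either direction. The changes of the 5 markers ran from -2.28 (PSAD1) to -0.49. In light polysomes the sum was 14.35 to 14.61 without and 13.56 to 14.25 with sucrose. There 0 of 5 were called, against 9.14% of all features, and 1 had an adjusted p under 0.05, against 31.3%. In dark polysomes the sum was 14.07 to 14.47 without and 13.16 to 13.70 with sucrose. Again 1 of 5 was called lower, and 11% of all features were called in either direction. The marker changes there ran from -2.16 to -0.53. None of these markers was near the lower end of the scale. In total RNA GASA6 fell by 3.53 in the light, where the largest of these marker falls was 1.43 (LHCB1.3). In dark total RNA GASA6 was 4.74 lower with sucrose, and the largest marker fall was 2.28 (PSAD1). The part of leaf cells in the GASA6 changes was not tested.

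GASA1 (AT1G75750), a member whose mRNA is known to rise with gibberellin, had its highest level in dark sucrose. In total RNA it read 11.50, 11.65 and 11.77 in the light control and 11.51, 11.55 and 11.57 with sucrose in the light. In the dark it read 11.65, 11.60 and 11.75 without sucrose and 12.13, 12.08 and 12.21 with it. The 3 dark sucrose arrays were above all 9 other total RNA arrays, and the light control group overlapped with both light sucrose and the dark control. The polysomal means were 11.63 ± 0.23 (light control), 11.62 ± 0.17 (light sucrose), 11.92 ± 0.15 (dark control) and 12.21 ± 0.08 (dark sucrose).

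With sucrose present, GASA1 rose in the dark relative to the light by 0.60 in total RNA (SE 0.12, limma adjusted p = 0.000633) and by 0.58 in polysomes (SE 0.12, limma adjusted p = 0.000724), about 1.5-fold and below the fold threshold. Without culture number 7 in all treatments the polysomal difference was 0.46 and no longer passed (limma adjusted p = 0.0655). Without sucrose the dark minus light difference of GASA1 was 0.03 in total RNA (limma adjusted p = 0.927) and 0.29 in polysomes (limma adjusted p = 0.135). Sucrose in the light gave -0.09 and -0.01, with limma adjusted p of 0.651 and 0.985. Sucrose in the dark gave 0.48 in total RNA and 0.29 in polysomes (SE 0.12 each), without overlap of the groups, as a description.

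GASA3 (AT4G09600) and GASA2 (AT4G09610) are neighbours on the minus strand of chromosome 4, with features at 6072804 to 6073612 and 6074770 to 6075645 in the identifiers and 1157 bases between them. Both gave low array values, and GASA3 was highest in dark sucrose total RNA. There GASA3 read 4.82, 4.83 and 4.11, against 2.91, 3.74 and 3.42 in the dark control, 3.80, 3.73 and 3.74 in the light control and 3.73, 3.78 and 3.90 in light sucrose. The dark sucrose arrays were above all others in total RNA, and culture 9 was the lowest of them.

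GASA3 rose with darkness in the presence of sucrose by 0.78 in total RNA (SE 0.22, limma adjusted p = 0.0110), which is 1.72-fold and below the fold threshold, and the corresponding polysomal difference was 0.22 (limma adjusted p = 0.545). The total RNA difference was 0.63 without culture number 7 (limma adjusted p = 0.166) and 0.65 without number 8 (limma adjusted p = 0.114). Sucrose in the dark, as a description, gave 1.23 in total RNA but 0.19 in small polysomes, where the groups overlapped (3.61, 4.05 and 3.21 without and 3.53, 3.94 and 3.96 with sucrose). Most GASA3 arrays lay below the lower quartile of their array, at a level where background hybridization weighs on the value. GASA2 had group means from 3.89 to 4.34 and GASA5 (AT3G02885), the member that delays flowering, from 4.42 to 4.80. Neither had an adjusted p under 0.05 in the tests of sucrose in the light or of darkness.

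GASA4 (AT5G15230) had lower values in the dark. In total RNA it read 9.90, 9.77 and 9.40 in the light control and 9.20, 8.97 and 8.52 in the dark control, without overlap. The difference of -0.79 had a limma adjusted p of 0.0474 (SE 0.25) and was below the fold threshold. With only the arrays of the 2 groups in the fit the limma adjusted p was 0.0855. Dropping culture number 7 or 8 from all treatments gave 0.240 or 0.310. With sucrose the dark minus light difference was -0.62 in total RNA (limma adjusted p = 0.0730) and -0.55 in polysomes (limma adjusted p = 0.110), so all 4 darkness differences of GASA4 were negative. Root marker sums were also lower in the dark (9.47 to 9.79 on the 12 dark arrays against 9.81 to 10.13 on the 12 light arrays). None of the 6 root markers was called in a darkness comparison, where 1.38% to 8.47% of all features were. Their part in the GASA4 values was not tested.

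GASA14 (AT5G14920) was lowest in dark sucrose. In small polysomes it read 10.22, 10.58 and 11.35 there, against 11.70, 11.49 and 11.98 in light sucrose, 11.14, 10.84 and 11.80 in the light control and 10.64, 11.03 and 11.66 in the dark control. Culture 9 was the highest in 8 of 8 groups. With sucrose present, GASA14 fell in the dark by 1.01 in polysomes (SE 0.34, limma adjusted p = 0.0317) and by 0.94 in total RNA (SE 0.34, limma adjusted p = 0.0465). The polysomal change was past 2-fold (2.01-fold) and the total RNA change was not. Without culture number 7 or 8 in all treatments the limma adjusted p in total RNA was 0.292 or 0.246. The polysomal call was lost without culture number 7 (-0.77, limma adjusted p = 0.301) and without number 8 (-1.05, limma adjusted p = 0.181). With the culture number as a block, the limma adjusted p of the polysomal change was 2.82e-05. Same-numbered polysomal arrays of this comparison deviated together with r from 0.100 to 0.226. Sucrose in the light gave 0.34 in total RNA and 0.46 in polysomes (limma adjusted p = 0.543 and 0.372), and sucrose in the dark -0.39 in both fractions, as a description.

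**Figure D2:**
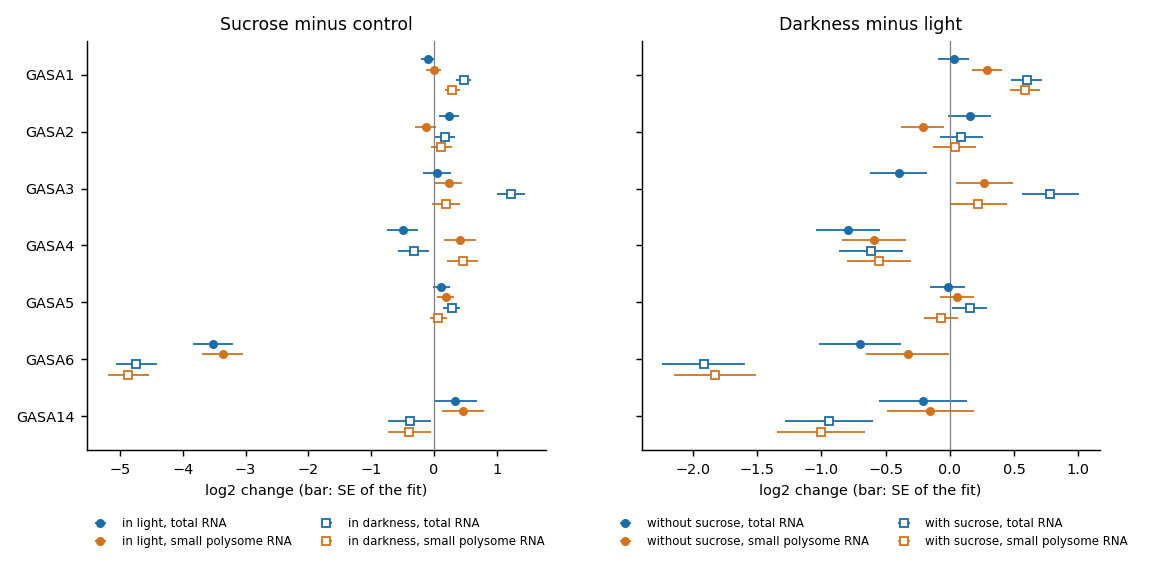
Changes of the 7 GASA genes. The x axis is the log2 change (left, sucrose minus control, right, darkness minus light), points are estimates from the linear model over 24 arrays, bars are their SE, blue is total RNA, orange small polysome RNA, filled circles are changes in the light (left) or without sucrose (right) and open squares changes in the dark (left) or with sucrose (right). GASA6 lies between -3.37 and -4.87 for sucrose, away from the other members, of which GASA3 has the highest value (1.23).

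The darkness comparisons were counted over the 6 members other than GASA6, whose values there are a description. Without sucrose 0 of 6 were called in total RNA, where 1.49% of all features were, and 0 of 6 in polysomes, where 1.38% were. At an unadjusted limma p under 0.05 it would be 1 of 6 in total RNA (GASA4, against 22.9% of all features) and 2 of 6 in polysomes (GASA1 and GASA4, against 23.6%). With sucrose 0 of 6 were called in total RNA, against 8.07% of all features, and 1 of 6 in polysomes (GASA14, against 8.47%). By the limma adjusted p alone, 1 of 6 passed without sucrose in total RNA (GASA4, against 10% of all features) and 0 in polysomes (against 11.1%), and with sucrose 3 passed in total RNA (27.3%) and 2 in polysomes (28.5%). For sucrose in the dark, the 2 members past the thresholds in total RNA were GASA6 (lower) and GASA3 (higher), with 11.1% of all features called, and GASA6 alone in polysomes, with 11% called. These last counts rest on the comparison used for the choice and only describe the members.

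Polysomal occupancy, the log2 difference between small polysome and total RNA of the same culture, was lowest for GASA4 in both controls. In the light control GASA4 had occupancies of -1.10, -0.89 and -1.08, a mean that only 1.36% of all features fell below, and in the dark control -0.78, -0.57 and -1.13. With sucrose the values were -0.20, -0.12 and -0.02 in the light and 0.16, 0.05 and -0.37 in the dark. All 6 control cultures were thus below all 6 sucrose cultures.

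The occupancy of GASA4 was higher by 0.91 with sucrose in the light (SE 0.35). This did not pass after adjustment over all features (limma unadjusted p = 0.0173, adjusted p = 0.492). That model did not pair the total and polysomal arrays of a culture, although they deviated together. The occupancies themselves had SDs over cultures of 0.12 in the light control and 0.09 in light sucrose. In alternative fits the adjusted p ranged from 0.0559, with the culture as a random block, to 0.999938. In darkness the difference was 0.78 (SE 0.35), as a description. It came from both sides, since in the light GASA4 total RNA was 0.50 lower with sucrose (limma adjusted p = 0.158) while its polysomal RNA was 0.42 higher (limma adjusted p = 0.245).

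None of the 7 members was called for an occupancy change in the light by limma, where 0.359% of all features were, and at an unadjusted p under 0.05 GASA4 alone would be, against 6.58% of all features. The 10 alternative fits gave 0 members as well. In darkness 0 members and 0% of all features were called. GASA6 had occupancies near 0, with means of -0.24 ± 0.23 in the light control, -0.08 ± 0.25 in light sucrose, 0.13 ± 0.16 in the dark control and 0.01 ± 0.30 in dark sucrose. Its occupancy change with sucrose in the light was 0.16 (SE 0.45, limma adjusted p = 0.999863). GASA3 read -1.29, -0.88 and -0.15 in dark sucrose against 0.70, 0.31 and -0.22 in the dark control, with culture 9 of dark sucrose inside the control range. GASA1, GASA5 and GASA14 had mean occupancies between -0.26 and 0.25 in all 4 treatments, and GASA2 between -0.33 and 0.09.

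**Figure D3:**
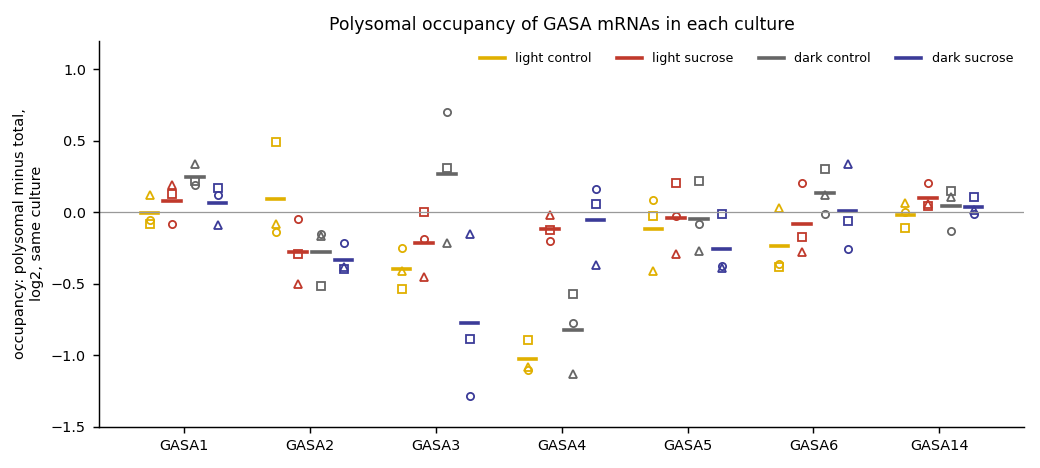
Polysomal occupancy of the 7 GASA mRNAs. The y axis is the log2 difference between small polysome and total RNA of one culture, colours are the 4 treatments, circles, squares and triangles are cultures 7, 8 and 9, and bars are means of 3 cultures. GASA4 lies near -1 in both controls (means -1.03 and -0.83) and near 0 in both sucrose treatments (-0.11 and -0.05), whereas GASA6 stays near 0 throughout.

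The members did not share 1 pattern. Across the 24 arrays, which share treatments and cultures and are no independent samples, Pearson's r of GASA6 with the other members ran from -0.58 (GASA1) to 0.19 (GASA4), and the highest r between any of the 7 was 0.56 (GASA3 and GASA5). Among all features with a mean above the median, those most like GASA6 over the 24 arrays were EXPA8 (r = 0.991) and EXPA1 (r = 0.990), which encode expansins that loosen cell walls, then AT5G21222 (0.986), AT1G74370 (0.985) and RIBA3 (0.985), a homologue of a riboflavin synthesis enzyme. The most opposite were AT5G43420 (-0.979), AT5G23850 (-0.970) and LOS2 (-0.970), which encodes a cytosolic enolase. These values are set mainly by the treatments. For deviations from the group means r was 0.852 for EXPA8 and 0.854 for EXPA1 with GASA6, 0.426 for AT5G21222 and -0.232 for LOS2.

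EXPA8 read 12.02, 12.16 and 11.60 in light control total RNA and 9.16, 8.58 and 9.24 with sucrose, a change of -2.93 (SE 0.30). In the dark it read 11.65, 11.34 and 10.40 without and 7.62, 7.70 and 7.90 with sucrose. As for GASA6, culture 9 was the lowest of the dark controls, and the dark sucrose arrays were lowest of all. EXPA1 changed by -2.31 with sucrose in the light and by -2.79 in the dark, and LOS2 by 1.03 and 1.18, as a description of genes picked for their likeness. For the other members the most alike features were AT4G33910 for GASA1 (r = 0.935), AT4G22120 for GASA4 (0.863), PYL6, an abscisic acid receptor gene, for GASA14 (0.813), AT5G50130 for GASA3 (0.784), AT3G43148 for GASA2 (0.708) and AT1G35110 for GASA5 (0.695).

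**Figure D4:**
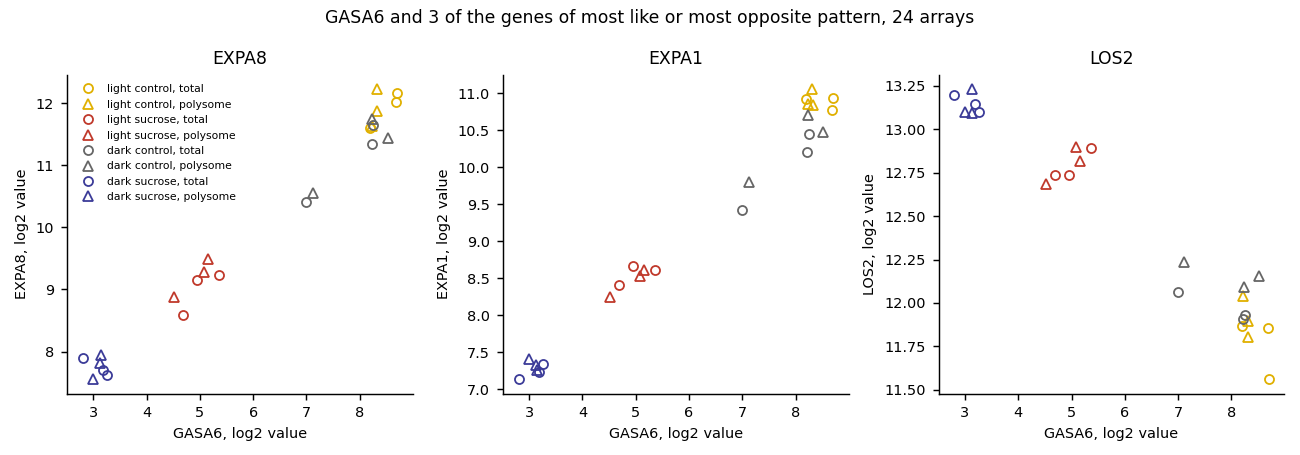
EXPA8, EXPA1 and LOS2 against GASA6. Both axes are log2 values, each symbol is 1 of 24 arrays, circles are total RNA and triangles small polysome RNA, and colours are the 4 treatments. EXPA8 and EXPA1 rise with GASA6 (r = 0.991 and 0.990) and LOS2 runs the other way (-0.970), with the dark sucrose arrays at the low end of GASA6.

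A list of 8 further loci of the family, which the gene table used here does not name as GASA genes, was counted as well. Of these, 7 had mean levels below the median of all features. With sucrose in the light 0 of 8 were called in total RNA, against 8.36% of all features, and 1 in polysomes, against 9.14%, where AT1G22690 fell by 1.12 (SE 0.17, limma adjusted p = 2.17e-05). AT1G22690 in total RNA read 8.65, 8.63 and 8.52 in the light control and 7.82, 7.80 and 7.31 with sucrose, a change of -0.96 below the fold threshold (limma adjusted p = 0.000136). None of the 8 was called with sucrose in the dark, where 11.1% (total RNA) and 11% (polysomes) of all features were. For darkness none was called either, against 1.49% and 1.38% without sucrose and 8.07% and 8.47% with it.

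Genes that set the gibberellin signal were examined by role, on a list of 33. Of 14 synthesis genes, GA3 (ent-kaurene oxidase) and KAO2 (ent-kaurenoic acid oxidase) were called lower with sucrose in the light in total RNA, and 12 were not called. Over all features 4.63% were called lower there. GA3 read 7.24, 7.04 and 7.16 without and 5.85, 6.10 and 6.17 with sucrose, a fall of 1.11 (SE 0.15, limma adjusted p = 1.25e-05), and it fell by 1.202 in polysomes (limma adjusted p = 4.20e-06). KAO2 read 8.25, 8.15 and 8.001 without and 6.90, 6.89 and 6.65 with sucrose, a fall of 1.32 (SE 0.12, limma adjusted p = 6.80e-08). Its polysomal change of -0.99 was just under the fold threshold. GA3 was thus the only synthesis gene called in polysomes, where 4.34% of all features were called lower. By limma adjusted p alone 1 of 14 was higher and 2 lower in total RNA, against 28.5% of all features in either direction. In polysomes 1 was higher and 4 lower, against 31.3%. The higher gene was GA2, with 0.84 in both fractions (limma adjusted p = 0.0124 and 0.0113), below the fold threshold.

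None of the 7 deactivation genes, which encode GA 2-oxidases, was called with sucrose in the light in either fraction, where 8.36% (total RNA) and 9.14% (polysomes) of all features were. A pair of them were picked after their values were seen and are given as a description. In dark total RNA GA2OX2 read 7.45, 7.16 and 7.82 without and 10.03, 10.23 and 10.73 with sucrose, which is 2.85 higher (SE 0.34), and GA2OX6 was 1.05 higher (SE 0.31). KAO2 fell by 2.15 with sucrose in dark total RNA (limma adjusted p = 5.53e-11). These pathway genes were no part of the choice of the family, although the arrays are those in which GASA6 was noticed.

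The receptor genes GID1A and GID1C were lower with sucrose and GID1B was not. GID1A read 9.61, 9.49 and 9.70 in light control total RNA and 8.73, 8.74 and 8.48 with sucrose, a change of -0.95 just under the fold threshold (limma adjusted p = 1.51e-05), and it fell by 1.16 in polysomes (limma adjusted p = 1.29e-06). GID1C fell by 1.1998 in polysomes (SE 0.16, limma adjusted p = 4.65e-06), with -0.78 in total RNA. In the dark GID1A fell by 1.94 and GID1C by 1.07 in total RNA, both called, while GID1B was 0.75 higher (limma adjusted p = 0.00647) and below the fold threshold.

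None of the 5 DELLA genes (GAI, RGA, RGL1, RGL2 and RGL3) was called in a sucrose or darkness comparison. The same holds for 4 genes that control DELLA activity or breakdown (SLY1, SNE, SPY and SEC). From 1.38% to 11.1% of all features were called in these comparisons. RGA had sucrose effects of 0.07 under light and -0.82 in darkness in total RNA (SE 0.14 each, limma adjusted p = 0.780 and 7.03e-05), and the difference between them, -0.89, passed (limma adjusted p = 0.00559). GAI had 0.06 and -0.85, but its difference of -0.91 did not pass. Its dark sucrose total RNA arrays read 7.94, 7.76 and 6.92. Across the 33 genes the light total RNA comparison gave 0 higher and 2 lower calls and the polysomal comparison 0 higher and 3 lower, against 8.36% and 9.14% of all features called. In dark total RNA it was 2 higher and 3 lower, against 11.1%.

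**Figure D5:**
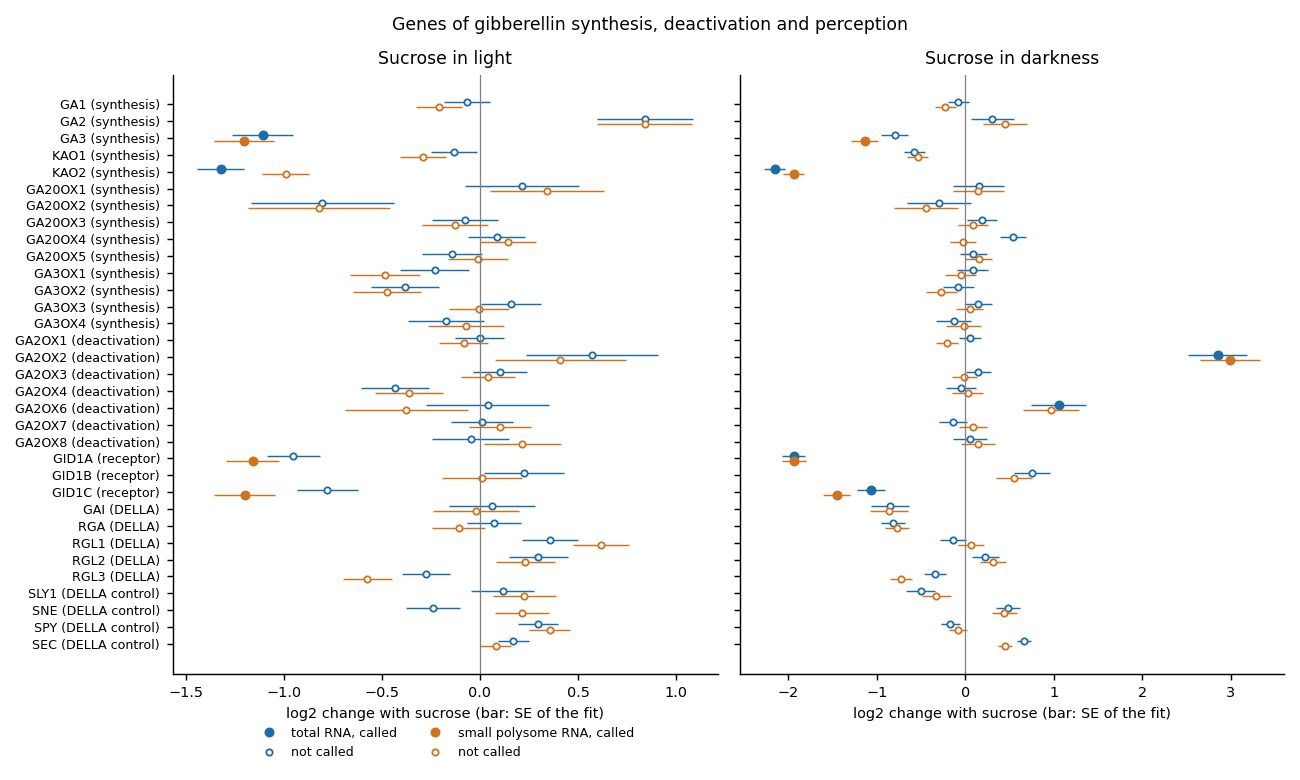
Sucrose effects on 33 genes of gibberellin synthesis, deactivation, perception and DELLA control. The x axis is the log2 change with sucrose under light (left) and in darkness (right) with the SE as bars, blue is total RNA and orange small polysome RNA, and filled symbols are changes past a limma adjusted p of 0.05 and 2-fold. GA2OX2 has the highest change in darkness (2.85 in total RNA, against 0.57 under light), and GID1A is lower with sucrose on both sides.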

How the data were processed

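The authors hybridized total and small polysome RNA of 12 cultures to 24 AGRONOMICS1 arrays. The deposited log2 values were made by the authors with RMA, which corrects the background, normalizes the arrays against each other and summarizes the probes of a feature, and arrays of the non-polysomal fraction were left out of that step. RMA keeps relative and not absolute amounts of mRNA, so a change is relative to the other features of an array. Arrays of large polysomes were not analysed here. The values were used as deposited, without 371 control rows. Genome build and transcript models of the array identifiers are not given in the sources used here, and coordinates were read from the identifiers alone (a feature without coordinates there has none here).

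In R 4.3.3 with limma 3.58.1, a single model of 8 group means was fitted to 30386 features over 24 arrays. Variances were moderated (3.57 prior degrees of freedom), and p-values were adjusted over all features within each of 12 contrasts by the Benjamini-Hochberg method. A call for sucrose or darkness needed an adjusted p under 0.05 together with a change of over 2-fold. For occupancy and for differences between sucrose effects the adjusted p was enough. Adjusted p values in the text come from this model unless a left-out culture number or another alternative fit is named with them. SE is that of the model and SD that of 3 arrays or cultures. The methods name 3 biological replicates, and p-values reflect the spread between arrays of these cultures within a group. The model has no term for the culture, so for occupancy it treats the total and polysomal arrays of a culture as independent. Figures were drawn in Python 3.11.15 with matplotlib 3.10.9. The code was tested on simulated data.

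The members and the gene lists were chosen with earlier results of these data known. All 7 members are named, further GASA loci where called, gibberellin genes where called with sucrose in the light or as GID1 and DELLA genes, and the features most like a member by Pearson's r among those with a mean above the median (5 highest and 3 lowest for GASA6, 1 for each other member). GA2OX2 and GA2OX6 were added after their values were seen.

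Same-numbered arrays deviated together from their group means in the sucrose comparisons (r from 0.109 to 0.387). The main model did not use this pairing, and the number entered only as a block in an alternative fit. In the darkness comparisons of total RNA some pairs lay lower (from 0.0147). The total and the polysomal array of a culture deviated together with r from 0.211 to 0.598. Alternatives were fits to the groups compared only, the replicate number or the culture as a block, an intensity trend with a robust prior, quantile normalization, equal array medians, a filter on low means, no fold threshold and leaving out each replicate.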

Additional observations from a re-analysis of the deposited data

Results flagged for a closer look

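The difference between the sucrose effects in the light and in the dark, taken in the model, is given here for GASA1, GASA3 and GASA6. They were flagged by a limma adjusted p under 0.05 for it. For GASA1 in total RNA the effect in the dark was higher by 0.57 on the log2 scale, from -0.09 in the light to 0.48 in the dark. For GASA3 in total RNA it was higher by 1.18, from 0.05 to 1.23, at levels near the low end of the arrays. For GASA6 in small polysomes the difference was -1.501, from -3.37 in the light to -4.87 in the dark. In total RNA the GASA6 difference was -1.22 and was not flagged. All 3 flagged differences include the comparison for which the family was picked. The adjusted p thus served only to pick them, and they describe the members and carry no test. Over all features 8.94% passed for this difference in total RNA and 11.5% in polysomes.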

How the results depend on the processing

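The call of GASA6 with sucrose in the light held in total RNA and polysomes in all 10 alternatives (changes from -3.87 to -3.28 and from -3.48 to -3.15). The counts below for sucrose in darkness and for differences between sucrose effects include the comparison used for the choice. They only describe the members and carry no test. With the replicate block 1 of 7 members was called with sucrose in the light in each fraction and 2 and 1 in the dark, as without it. The block moved the count of differences between sucrose effects in polysomes from 1 to 2 members (GASA14, -0.85) and in total RNA from 2 to 3 (GASA14, -0.73), and it changed no other call. For darkness with sucrose in total RNA, the block gave GASA14 a limma adjusted p of 6.14e-05. Same-numbered arrays there had r of 0.0689, 0.262 and 0.305.

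The count for sucrose in darkness in total RNA was 1 with the filter on low means, which removed GASA2 and GASA3, and 1 to 2 when replicates were left out. Without a fold threshold it was 1 for darkness without sucrose and 4 for darkness with sucrose in total RNA. Leaving out a replicate gave 1 to 3 members for darkness with sucrose in total RNA and 1 to 2 in polysomes. For the difference between sucrose effects, again as a description, the main counts were 2 (total RNA) and 1 (polysomes). They became 1 and 0 with quantile normalization, 1 in total RNA with the filter, and 0 to 4 and 0 to 2 without a replicate. Among changes of at least 1 SE, directions changed only for 3 small differences in darkness without sucrose in polysomes when replicates were left out (GASA2 -0.46 to 0.0225, GASA3 -0.0320 to 0.46, GASA6 -0.59 to 0.0614). The causes were not tested.

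Quantile normalization moved 8 group levels by more than 1 SD. These were GASA3 light control total RNA (3.70), GASA1 light sucrose total RNA (11.57), GASA5 light sucrose and dark sucrose total RNA (4.58 and 4.71), GASA2 dark control total RNA (4.07), and GASA1, GASA2 and GASA6 in dark sucrose polysomes (12.31, 4.11 and 3.20). With 3 cultures per group and no single detection limit, low values of GASA2, GASA3, GASA5 and dark sucrose GASA6 are the least certain.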
